A study of Drosophila melanogaster with 3 samples.

Results

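The 10 genes described here encode enzymes of glycolysis and lactate dehydrogenase in Drosophila melanogaster: Pgi, Pfk, Ald, Tpi, Gapdh1, Gapdh2, Pgk, Eno, PyK and ImpL3. They were taken by name from the deposited expression table. Each of the 10 had 1 row of its own among 15229 rows (13358 named genes), and none shared its row with another named gene. All 10 were among the 9693 genes that reached 1 RPKM (reads scaled to the length of the transcript and to the size of the library) in at least 1 library. ImpL3 is an older name of Ldh, and Ald of Ald1.

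RNA was sequenced from brains of 3rd instar larvae, after removal of ribosomal RNA, in 3 libraries of 1 genotype each. The library labelled double mutant came from larvae homozygous for the dBRWD3 allele PX2 and for the yem insertion GS21861 (dBRWD3PX2/PX2, yemGS21861/GS21861). The library labelled single mutant came from dBRWD3PX2/PX2 larvae, and the library labelled control from dBRWD3PX2/+ larvae, so the control also carried 1 copy of PX2. The number of brains behind each library is not stated. Without replicates the spread between brains of 1 genotype is unknown, so no test was run, and each statement compares these 3 libraries. Counts of higher or lower genes use a ratio of 2 libraries, with 1 RPKM added to each, of 1.5-fold or more, and the share of all 9693 genes past the same fold is given with the counts.

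Glycolysis splits glucose into pyruvate. Hexokinase, Pgi, Pfk, Ald and Tpi turn the sugar into triose phosphates at the expense of ATP, and Gapdh, Pgk, phosphoglycerate mutase, Eno and PyK then recover ATP and NADH. Lactate dehydrogenase (ImpL3) turns pyruvate into lactate and gives back the NAD+ that the Gapdh step needs. In flies the nuclear receptor ERR is known to drive these genes together during larval growth, and glial cells of the fly brain are known for high glycolysis.

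The genes of the pathway differed widely in level, and lactate dehydrogenase was far below the rest. Eno (enolase; 2L, 1724973 to 1729629, dm3) had 586 RPKM in the double mutant, 773 in the single mutant and 759.5 in the control library. ImpL3 (3L, 6252565 to 6255793) had 12.3 RPKM in the double mutant, 17.4 in the single mutant and 15.7 in the control library. Per transcript length, Eno RNA was therefore 47.7, 44.4 and 48.4 times as abundant as ImpL3 RNA in the double mutant, single mutant and control libraries. By level among the 9693 genes, Eno was number 340 in the double mutant, 339 in the single mutant and 329 in the control library, and ImpL3 was number 5220, 4128 and 4301 in the same libraries. The order from high to low in the control library was Eno, Gapdh2, Gapdh1, PyK, Pgk, Tpi, Ald, Pgi, Pfk and ImpL3. Pgi and Pfk, with 69.3 and 67.3 RPKM there, lay close together, and with 1 library no spread is known that would separate neighbours in this order.

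**Figure D1:**
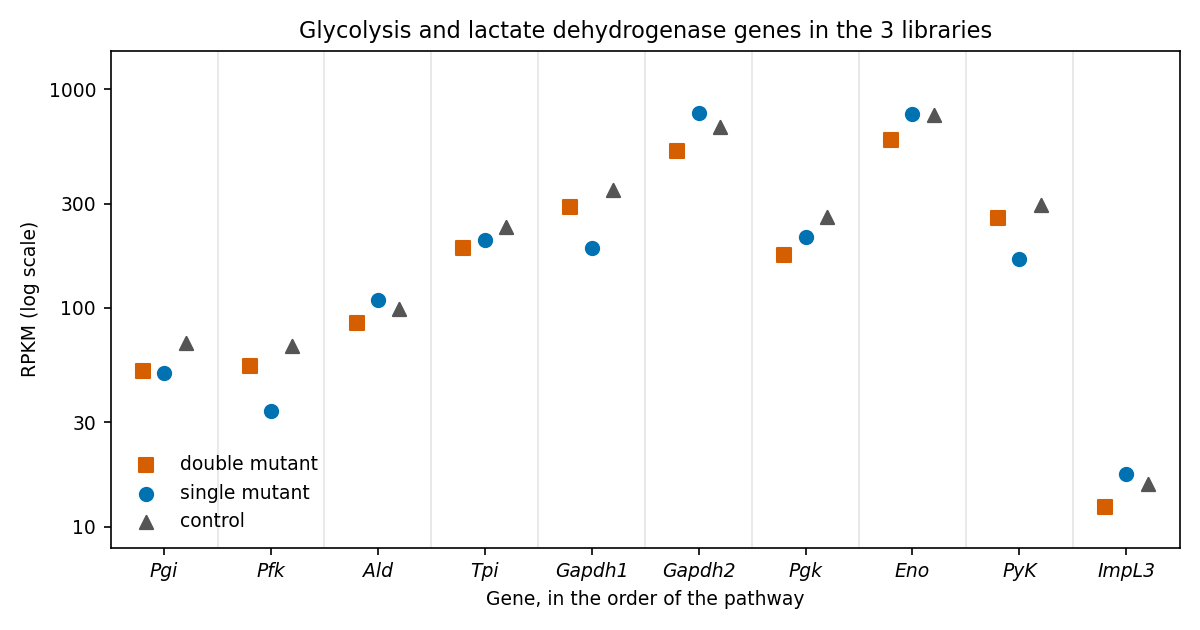
RPKM on a log scale (vertical axis) of each of the 10 genes, in the order of the pathway (horizontal axis); each point is the single library of a genotype, with squares for double mutant, circles for single mutant and triangles for control. The single mutant circle lies below both other points for Pfk (33.8 RPKM), Gapdh1 (189) and PyK (167), while ImpL3 lies below 20 RPKM in every library. For Pgi the circle is also the lowest point, but only just below the double mutant (50.5 against 51.7 RPKM).

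Pfk, Gapdh1 and PyK had low values in the library labelled single mutant. Pfk, the phosphofructokinase that commits sugar to glycolysis (2R, 5997244 to 6004696), had 54.4 RPKM in the double mutant, 33.8 in the single mutant and 67.3 in the control library. Gapdh1, a glyceraldehyde 3-phosphate dehydrogenase (2R, 3679402 to 3693904), had 288 RPKM in the double mutant, 189 in the single mutant and 346 in the control library. PyK, the pyruvate kinase of the last ATP-forming step (3R, 18193233 to 18198464), had 258 RPKM in the double mutant, 167 in the single mutant and 297 in the control library. In each of the 3 genes the single mutant value was the lowest and the control value the highest. Pgi had the same order, with its mutant values close together. The single mutant value was 49.8% lower than control for Pfk, 45.3% lower for Gapdh1 and 43.7% lower for PyK. The log2 ratios of single mutant to control, with 1 RPKM added, were -0.97, -0.87 and -0.82, and 3.84%, 4.68% and 5.28% of all genes had lower ones.

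Of the 10 genes, 3 thus lay 1.5-fold or more below control in the single mutant library and 0 above it, where 9.46% of all genes lay below and 10.7% above. Among the 1772 genes with a mean of at least 50 RPKM, a level that 9 of the 10 reach, 5.81% lay below by that much. The other 7 genes lay within 1.5-fold. None of the 10 lay 2-fold below control with 1 RPKM added, as 3.6% of all genes did, and Pfk came closest. The median log2 ratio of the 10 was -0.25, against 0.04 for all genes tested and 0.11 for the 1772 genes of at least 50 RPKM.

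The other 7 enzymes had smaller ratios of single mutant to control, in both directions. Pgi, the glucose 6-phosphate isomerase (2R, 4798406 to 4801631), had 51.7 RPKM in the double mutant, 50.5 in the single mutant and 69.3 in the control library. Both mutant values of Pgi were close to each other and below control, by 25.5% in the double mutant and 27.1% in the single mutant. Pgk, phosphoglycerate kinase (2L, 2745101 to 2748522), had 175 RPKM in the double mutant, 210.0 in the single mutant and 261 in the control library. Tpi, the triose phosphate isomerase (3R, 25958697 to 25960321), had 188 RPKM in the double mutant, 205 in the single mutant and 234 in the control library. For Pgk and Tpi the values were lowest in the double mutant, intermediate in the single mutant and highest in the control library.

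Ald, Gapdh2, Eno and ImpL3 had their highest value in the single mutant library instead. Ald, the fructose bisphosphate aldolase (3R, 22079788 to 22087313), had 85.7 RPKM in the double mutant, 108 in the single mutant and 98.8 in the control library. Gapdh2, the X-linked copy of the dehydrogenase gene (X, 15762177 to 15763694), had 524 RPKM in the double mutant, 781 in the single mutant and 675 in the control library. The excess of single mutant over control was 15.8% for Gapdh2, 11.2% for ImpL3, 9.57% for Ald and 1.82% for Eno. That of Eno turned to a log2 ratio of -0.06 when the libraries were scaled to the median of genes of at least 10 RPKM. These 4 genes all lay below 1.5-fold.

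The pair of Gapdh genes therefore had opposite signs between the single mutant and control libraries. Gapdh2 RNA was 1.82 times Gapdh1 RNA in the double mutant, 4.13 times in the single mutant and 1.95 times in the control library. Summed, the pair had 812 RPKM in the double mutant, 970 in the single mutant and 1020.4 in the control library, so the sum in the single mutant library was 4.95% below control. The genes encode closely similar proteins, and how the authors' counting divided reads that match both is not stated, so the split between them is uncertain. The Gapdh1 locus as deposited also spans rows for mus205 (4.62, 4.27 and 3.98 RPKM in the double mutant, single mutant and control libraries) and CG1553 (18.2, 20.7 and 13.9 RPKM), all far below Gapdh1. In the single mutant library CG1553 lay above control where Gapdh1 lay below it. The loci of Eno and Pgk overlap rows for Rrp40 (60.7, 55.3 and 55.4 RPKM) and Cwc25 (8.07, 8.66 and 8.11 RPKM). The counting is not stated to use strand, so reads of these overlapping genes may not be fully separated.

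Set against the single mutant library, the library labelled double mutant had higher values of Pfk, Gapdh1 and PyK and lower values of most other enzymes. RPKM was 1.61-fold higher in the double mutant than in the single mutant library for Pfk, 1.53-fold for Gapdh1 and 1.54-fold for PyK. These 3 of the 10 were the ones at least 1.5-fold higher, where 11.2% of all genes were, and 0 of the 10 were at least 1.5-fold lower, where 6.27% were. Because the single mutant library enters both comparisons, the low values there and the high ratios here are not independent of each other. Gapdh2 lay just short of the limit, 32.9% lower in the double mutant. ImpL3 was 29.5% lower, Eno 24.3%, Ald 20.8%, Pgk 16.5% and Tpi 8.25% lower, and Pgi was 2.27% higher. The log2 ratios of Tpi and Pgk turned to 0.14 and 0.0022 when short RNA genes were left out and the libraries rescaled. The median log2 ratio of the 10 was -0.19, against 0.04 for all genes and -0.12 for the 1772 genes with a mean of at least 50 RPKM, and it turned to 0.070 under the same rescaling.

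The double mutant library lay below control for all 10 genes, by similar amounts, but 2 of them turned higher under the rescaling without short RNA genes. The log2 ratios lay between -0.57 (Pgk, 32.7% lower) and -0.20 (Ald, 13.2% lower, and PyK, also 13.2% lower). Their range of 0.37 was narrower than the 1.19 of single mutant to control and the 1.25 of double to single mutant. Lower values of any size were found for 41.9% of all genes, and for 54.2% of genes with a mean of at least 50 RPKM. No gene of the 10 reached 1.5-fold in either direction, where 4.85% of all genes did so downwards and 11.3% upwards. The median log2 ratio was -0.32, against 0.07 for all genes and -0.02 for the 1772 genes with a mean of at least 50 RPKM. ImpL3 was 21.7% lower, close to Tpi (19.6%), Gapdh2 (22.4%) and Eno (22.9%).

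That rescaling raised the double mutant values and shifted the median log2 ratio of all genes to 0.29 for double mutant to control and to 0.28 for double to single mutant. With it 2.36% of all genes lay 1.5-fold or more below control in the double mutant library and 21.7% above, and 2.32% lay below and 21.3% above the single mutant library. Under it 8 of the 10 genes were still lower in the double mutant than in control. Ald and PyK had log2 ratios of 0.03 and 0.035, and the median of the 10 was -0.091. Relative to the median of all genes, 10 of 10 lay lower both in the deposited scale and in the rescaled one.

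**Figure D2:**
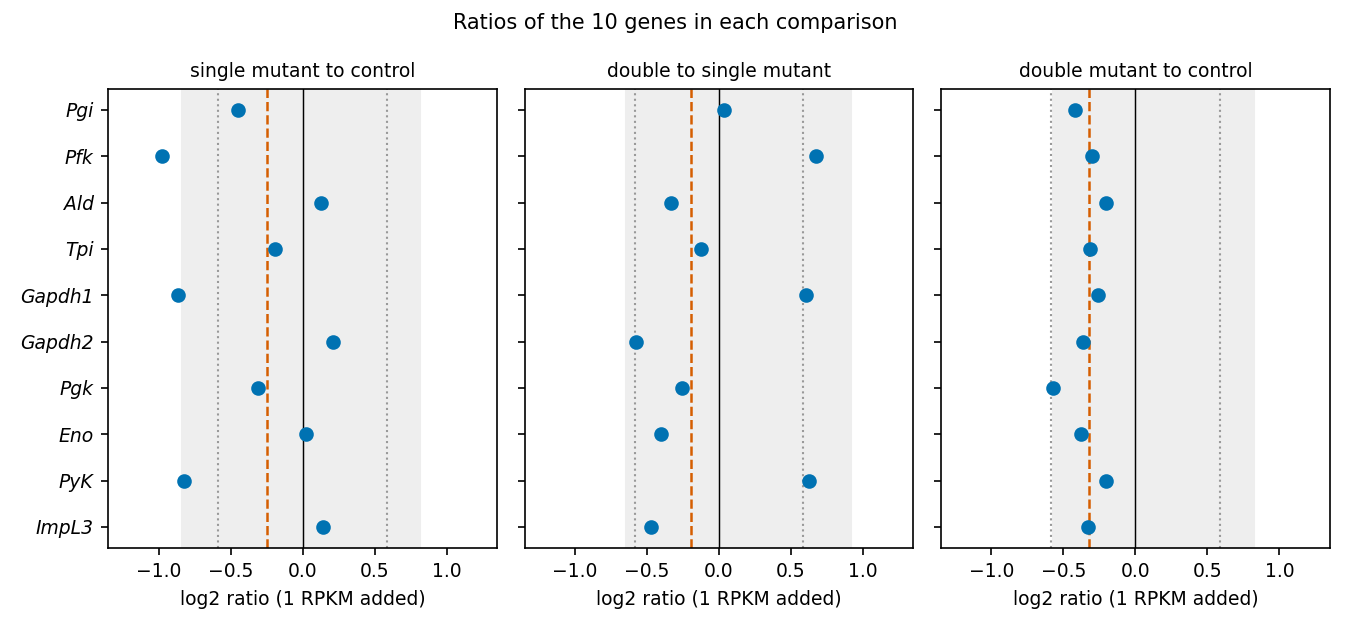
Log2 ratio with 1 RPKM added (horizontal axis) of each gene (rows) in the 3 comparisons; dotted lines mark 1.5-fold, the dashed line the median of the 10 genes and the grey band the central 90% of all 9693 genes. Pfk, Gapdh1 and PyK stand apart from the other 7 in both comparisons that use the single mutant library, while all 10 lie left of 0 for double mutant to control, or 8 of 10 when libraries are rescaled without short RNA genes.

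Summed over the 10 genes, glycolytic RNA was 2223 RPKM in the double mutant, 2535 in the single mutant and 2822 in the control library. On the deposited scale this is 21.2% below control in the double mutant and 10.2% below control in the single mutant. Rescaled without short RNA genes, the sums were 2504, 2380 and 2695 RPKM in the double mutant, single mutant and control libraries. The single mutant sum was then the lowest, so the order of the mutants depends on the scale. The sums of parts that follow are on the deposited scale. Pfk, Gapdh1 and PyK together had 600.1 RPKM in the double mutant, 390 in the single mutant and 709.6 in the control library. The other 7 together had 1622 RPKM in the double mutant, 2146 in the single mutant and 2112 in the control library. In the single mutant library the first sum thus lay below control and the second near it, a grouping made after the values were seen. Among the other 7, Pgi, Tpi and Pgk lay below control and Ald, Gapdh2, Eno and ImpL3 above it, so their sum mixes both directions. The uncertain split between Gapdh1 and Gapdh2 bears on both sums. The upper steps (Pgi, Pfk, Ald and Tpi) were 19.1% below control in the double mutant library and 15.3% below it in the single mutant library. The lower steps (Gapdh1, Gapdh2, Pgk, Eno and PyK) were 21.7% below control in the double mutant library and 9.27% below it in the single mutant library.

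Length and depth were looked at beside these values. The longest annotated transcripts of Pfk, PyK and Gapdh1 have 3508, 2109 and 1480 nucleotides, and those of the other 7 lie between 1374 (Tpi) and 2664 (Eno). After subtraction of the median ratio of genes of like transcript length, the same count of 3 lay 1.5-fold or more below control in the single mutant library. RPKM values carry no read numbers. The smallest values, multiplied by transcript length in kb, piled up at 0.03 to 0.04 in the double mutant and control columns and at 0.04 to 0.05 for the single mutant. If such a pile marks 1 read, ImpL3 rests on about 624 reads in the double mutant, 689 in the single mutant and 797 in the control library, with a counting error of 4.002%, 3.81% and 3.54%. On the same footing Pfk rests on about 5452, 2633 and 6747 reads, with errors of at most 1.95%. These figures cover counting error only and not the spread between brains or preparations. In the control column 51.0% of values above 0, and 5 of the 10 genes here, were written with more than 6 digits, against 0 in both mutant columns. Such values may be averages of more than 1 measurement, which no source used here states.

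The enzymes of glycolysis outside the 10 genes included rows with the same order of libraries as Pfk. Pglym78, the main phosphoglycerate mutase of the step between Pgk and Eno, had 112 RPKM in the double mutant, 70.6 in the single mutant and 121 in the control library. CG7059, another mutase gene, had 7.16 RPKM in the double mutant, 3.79 in the single mutant and 7.58 in the control library. The hexokinase gene Hex-A, of the first step, differed from them, with 13.5 RPKM in the double mutant, 9.91 in the single mutant and 8.46 in the control library. Of the 15 genes listed as isozymes and remaining steps, 8 passed the filter of 1 RPKM, and 2 of these, Pglym78 and CG7059, lay 1.5-fold or more below control in the single mutant library, where 9.46% of all genes did. Pglym78, CG7059 and Hex-A were picked out after their values were seen.

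Pepck, CG10924, CG9485 and Gpo-1 had the lists' largest ratios in gluconeogenesis, sugar storage and the glycerol 3-phosphate shuttle, with smaller ratios for the other genes of these lists. Pepck, the phosphoenolpyruvate carboxykinase of gluconeogenesis, had 6.09 RPKM in the double mutant, 1.69 in the single mutant and 5.91 in the control library. CG10924, a second gene of that enzyme, had 2.50 RPKM in the double mutant, 1.47 in the single mutant and 4.13 in the control library. Both single mutant values lay 2-fold or more below control, and the 4 gluconeogenesis genes had a median log2 ratio of -0.80. CG9485, the glycogen debranching enzyme gene, had 10.2 RPKM in the double mutant, 3.10 in the single mutant and 10.2 in the control library. Of 12 genes of sugar transport and storage that passed the filter, 4 lay 1.5-fold or more below control in the single mutant library and 0 above it, beside 9.46% and 10.7% of all genes, and the list median was -0.33. Among these 4 was Tps1, with 1.29 RPKM in the double mutant, 0.432 in the single mutant and 1.24 in the control library. Tps1 passed the filter only through the libraries where it was higher, so its low single mutant value is no independent result. The sugar transporter gene Glut1 of that list had 13.7 RPKM in the double mutant, 12.1 in the single mutant and 12.1 in the control library. Gpo-1, the mitochondrial glycerol 3-phosphate dehydrogenase that hands cytosolic reducing equivalents to the respiratory chain, had 5.46 RPKM in the double mutant, 1.28 in the single mutant and 7.17 in the control library. Its cytosolic partner Gpdh had 16.1 RPKM in the double mutant, 17.2 in the single mutant and 16.7 in the control library. The 3 rows of the shuttle list had a median log2 ratio of single mutant to control of 0.04, which is the value of Gpdh. The remaining row joins CG2137 and Cyt-b5, with 284, 301 and 262 RPKM in the same libraries, and the part of CG2137 in it is not known.

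In the lists of mitochondrial pyruvate use, few genes passed 1.5-fold, and with 9.46% of all genes lower and 10.7% higher, counts this small are near the background. Of 10 genes of pyruvate entry, 0 lay 1.5-fold or more below control in the single mutant library and 1 above it. Of 17 genes of the tricarboxylic acid cycle, 0 lay below and 1 above by that measure, with a median log2 ratio of -0.04. The gene that was higher was kdn, citrate synthase, with 12.2 RPKM in the double mutant, 8.62 in the single mutant and 4.73 in the control library. Its log2 ratio of double mutant to control was 1.21. Among 6 genes of monocarboxylate transport that passed the filter, CG8051 had 1.73 RPKM in the double mutant, 1.34 in the single mutant and 7.96 in the control library, 2-fold or more below control in each mutant library. Of the 7 pentose phosphate genes, 1 lay 1.5-fold or more below control in the single mutant library, beside 9.46% of all genes. This was the transketolase gene CG8036, with 150 RPKM in the double mutant, 105 in the single mutant and 183 in the control library.

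Over the 9 lists of neighbouring genes, 79 genes passed the filter, some, such as Tps1, only through libraries where they were higher. In the single mutant library 12 of these (15.2%) lay 1.5-fold or more below control and 4 (5.06%) above it, beside 9.46% and 10.7% of all genes. Between double mutant and single mutant, 1 was lower (1.27%) and 8 higher (10.1%), beside 6.27% and 11.2% of all genes. Between double mutant and control, 3 were lower (3.80%) and 9 higher (11.4%), beside 4.85% and 11.3%. All these counts are on the deposited scale only.

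**Figure D3:**
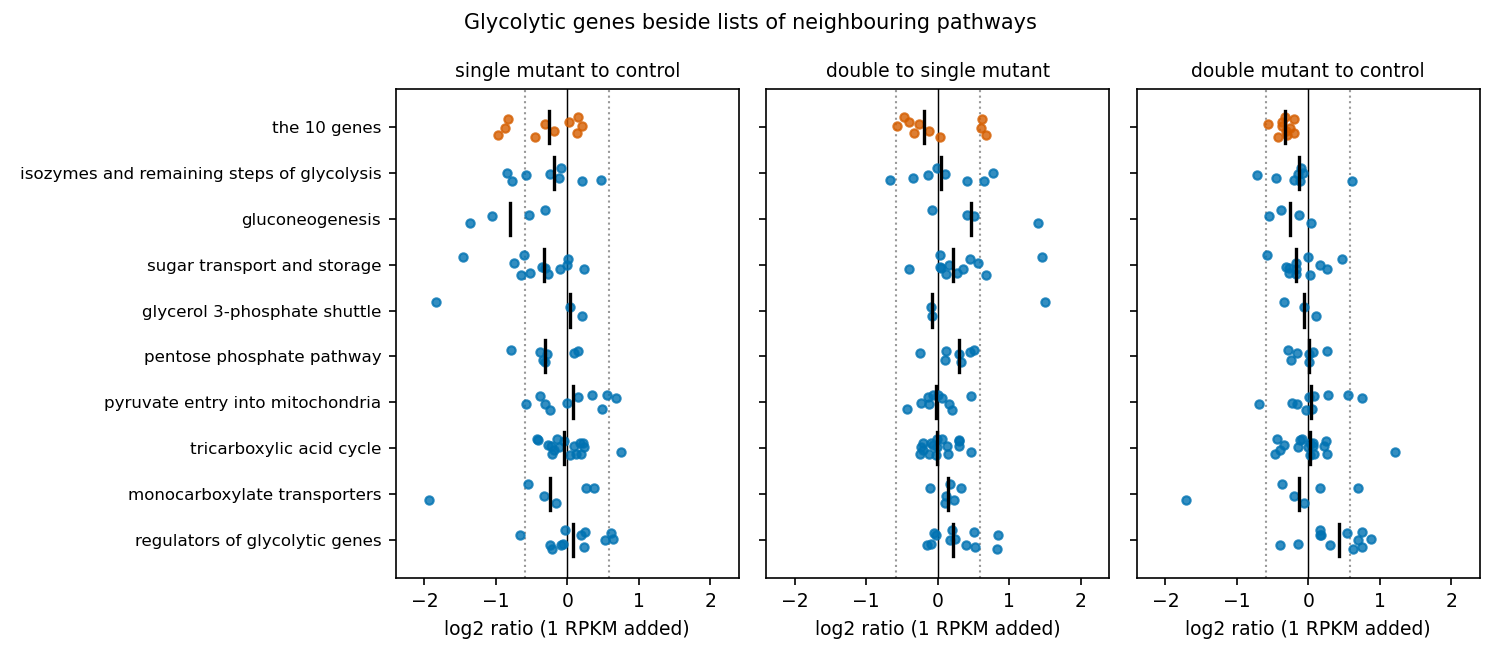
Log2 ratio with 1 RPKM added (horizontal axis) of the 10 genes (top row) and of the genes of at least 1 RPKM in 9 lists of neighbouring pathways (other rows) in the 3 comparisons; each point is a gene or joined row, the black bar is the list's median and dotted lines mark 1.5-fold. The gluconeogenesis median lies at -0.80 for single mutant to control, and the tricarboxylic acid cycle median at -0.04.

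RNAs of known regulators differed among themselves. ERR had 18.4 RPKM in the double mutant, 20.4 in the single mutant and 24.4 in the control library. The hypoxia factor gene sima had 16.6 RPKM in the double mutant, 11.4 in the single mutant and 9.46 in the control library, and its partner tgo had 7.12, 4.64 and 3.80 RPKM in the same libraries. The Myc gene dm had 22.5 RPKM in the double mutant, 23.4 in the single mutant and 15.05 in the control library. The stress factor gene crc, the fly counterpart of ATF4, had 213 RPKM in the double mutant, 119 in the single mutant and 189 in the control library. Of the 12 regulators, in the single mutant library 1 (crc) lay 1.5-fold or more below control and 2 above it, near the 9.46% and 10.7% of all genes. In the double mutant library 0 of the 12 lay below control and 5 above, beside 4.85% and 11.3% of all genes. The counts of regulators were not recomputed without short RNA genes, a rescaling under which 21.7% of all genes lay above control in the double mutant library.

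By the pair of log2 ratios single mutant to control and double to single mutant, over 3 libraries, the rows most like ImpL3 were cdc2, His4r, CG10566, CG14667 and CG2059, at distances of 0.02 to 0.04. Of 5591 rows with a mean of at least 10 RPKM, 48 lay within 0.1 of ImpL3. The rows nearest to Pfk were CG10361, Tom, CG10132, CalpA and mRpL38, at distances of 0.07 to 0.11, and 3 rows lay within 0.1. His4r had 1733 RPKM in the double mutant, 2389 in the single mutant and 2125 in the control library. CalpA, a calpain protease gene, had 21.97 RPKM in the double mutant, 14.3 in the single mutant and 28.1 in the control library.

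Markers of brain cells and of other tissues were read beside these values. Neuronal, neuroblast and glial markers were found in every library. The counts of markers stand beside 9.46% of all genes that lay 1.5-fold or more below control in the single mutant library and 10.7% above it. With 1 RPKM added, 0 of 5 neuronal markers passed 1.5-fold there. By less, 3 were lower and 2 higher, and the median log2 ratio was -0.43. In RPKM as deposited, para was 1.90-fold and Syt1 1.68-fold lower in the single mutant than in control, and elav 1.51-fold higher. The sums of the neuronal markers were 81.1 RPKM in the double mutant, 52.3 in the single mutant and 46.5 in the control library. The pan-neuronal gene elav had 40.7, 32.1 and 21.2 RPKM in these libraries, whereas the active zone gene brp had 21.0, 7.48 and 10.4 RPKM. Of 6 neuroblast markers 0 passed 1.5-fold there, 5 were higher by less and 1 lower, and their sums were 93.6, 97.7 and 85.2 RPKM. Between double mutant and control 4 of the 6 were lower and 2 higher, with a median log2 ratio of -0.12. The sums include pros, with 22.1, 9.99 and 8.08 RPKM. Of 6 glial markers, 2 lay 1.5-fold or more below control in the single mutant library and 1, a row joining CG4325 and moody, above it. At any size 2 of the 6 were lower there and 4 higher, and the median log2 ratio was 0.07. The glial factor gene repo had 16.4 RPKM in the double mutant, 6.73 in the single mutant and 12.4 in the control library, and the summed glial markers had 98.1, 80.6 and 84.7 RPKM. All 6 fat body markers lay 1.5-fold or more below control in the single mutant library, with sums of 1209 RPKM in the double mutant, 213 in the single mutant and 581 in the control library. All 5 gut markers were lower too, with sums of 35.6, 1.13 and 88.6 RPKM, and the single mutant library listed LysS at 0. Of 10 muscle markers, 2 lay 1.5-fold or more below control there, and their sums were 33.5, 34.5 and 53.1 RPKM. The part of these tissues in the values of Pfk, Gapdh1, PyK or the storage genes was not tested. In such bulk libraries fewer cells of a type and less RNA per cell cannot be told apart.

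**Figure D4:**
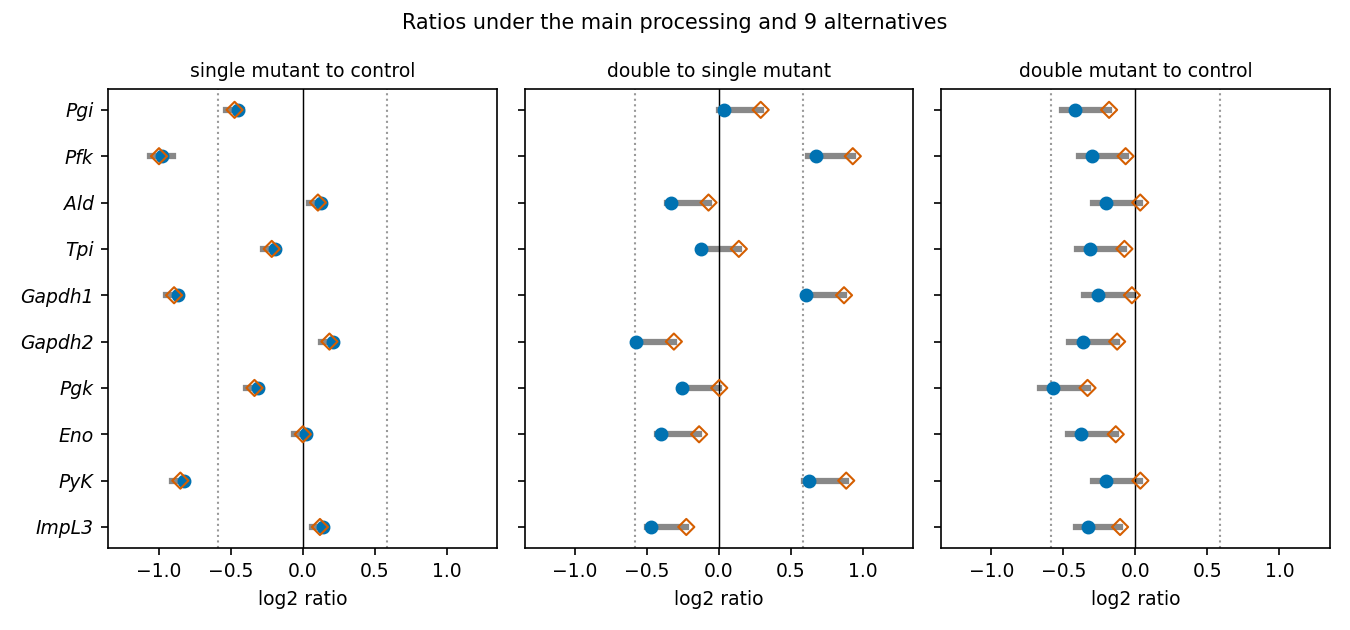
Log2 ratio (horizontal axis) of each gene (rows) in the 3 comparisons, with the blue point for the main processing, the grey bar for the range over the main processing and 9 alternatives, the open orange diamond for the rescaling without short RNA genes and dotted lines at 1.5-fold. Pfk, Gapdh1 and PyK stay past 1.5-fold under every setting in both comparisons with the single mutant library.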

How the data were processed

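The authors deposited 1 table of RPKM values, with a row per assembled locus and a column per library. Per the submitters' processing notes, the tools were TopHat2 2.0.9, Cufflinks 2.0.2, Trimmomatic and FastQC and the build was dm3; their settings are not stated. Coordinates are those of the table. From it, with Python 3.11.15, pandas 2.3.3 and numpy 2.4.6, 1769 rows with no gene name and 1 row with a missing value were left out, and of rows sharing a name that of highest mean was used. Ratios were log2((a + 1)/(b + 1)) for genes of at least 1 RPKM in a library. The added 1 RPKM makes ratios of low genes smaller. The calculation was tested on simulated data with larger planted changes called at 2-fold, a setting that does not cover the 1.5-fold counts. Transcript lengths came from the BDGP6 annotation, a later build whose coordinates were not used. All 10 members were named. From each pathway list the genes at least 2-fold different in a comparison were named (at most 3), and for ImpL3 and Pfk the 5 nearest rows. The other genes named from these lists, among them Pglym78, Hex-A, Glut1, CG8036, Gpdh and the regulators, and the markers named, were chosen after their values were seen. Members and lists were chosen with earlier results of these data known.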

Additional observations from a re-analysis of the deposited data

How the results depend on the processing

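Ratios of the 10 genes were recomputed with a pseudocount of 0.1 or 5 RPKM and with no filter or one at 5 RPKM. They were also recomputed with rows of one name summed, without joined rows, under 2 other scalings and with correction for transcript length. Counts in the lists of neighbouring genes and of markers were not recomputed. The median log2 ratio of the 10 genes moved with the rescaling without short RNA genes, to 0.070 for double to single mutant and to -0.091 for double mutant to control. With libraries scaled to the median of genes of at least 10 RPKM, 1 gene in place of 0 was at least 1.5-fold lower in the double mutant than in the single mutant, and 1 in place of 0 in the double mutant than in control. The first was Gapdh2, whose log2 ratio went from -0.576 to -0.585, and the second Pgk, from -0.569 to -0.662. Both lay just short of the limit in the main processing. Why the libraries differ in scale was not tested. The other 104 medians, counts and sums stayed within 0.1 (medians) or 1.5-fold, and the 270 recomputed ratios of single genes stayed within 1.5-fold of the main value. Over these settings the log2 ratio of single mutant to control ranged from -1.06 to -0.90 for Pfk, from -0.95 to -0.85 for Gapdh1 and from -0.91 to -0.81 for PyK. No paired analysis was possible because each genotype had 1 library. For the same reason no library could be left out, and the 1.5-fold limit is a size and not a level of error.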

Other observations

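Hex-t1 and Pglym87, 2 isozyme genes known mainly from the testis, were near 0 in these brain libraries. Hex-t1 had 0.119 RPKM in the double mutant, 0.0302 in the single mutant and 0.110 in the control library. Pglym87 had 0.170 RPKM in the double mutant, 0.0418 in the single mutant and 0.0271 in the control library. The pyruvate kinase relative CG7069, next to PyK on 3R, had 1.37 RPKM in the double mutant, 1.39 in the single mutant and 1.55 in the control library. The transketolase relative CG5103 was listed at 0 in all 3 libraries, while CG8036 exceeded 100 RPKM in each.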
